A study of Mus musculus with 9 samples.

Results

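The genes described here encode the pyruvate dehydrogenase complex and the enzymes that switch it off and on, and they were chosen by name from the deposited expression table. They are *Pdha1*, *Pdhb*, *Dlat* and *Pdhx*, which encode subunits of the complex, the kinase genes *Pdk1*, *Pdk2*, *Pdk3* and *Pdk4*, and the phosphatase genes *Pdp1* and *Pdp2*. All 10 names were found, each with 1 entry, among the 48820 genes of the table. The complex sits in the mitochondrial matrix and turns pyruvate into acetyl-CoA, and so links glycolysis to the tricarboxylic acid cycle. Its E1 component is inactivated when a kinase phosphorylates the alpha subunit and is reactivated when a phosphatase removes the phosphate. In the heart this control is known for the balance between the oxidation of glucose and that of fatty acids, and the kinase genes are known to respond to fasting, fatty acids, hormones and oxygen.

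Hearts of C57BL/6J mice were sequenced at 3 stages, with 3 hearts at each. The stages were embryonic day 18.5 (E18.5d), postnatal day 1 (P1d) and postnatal day 7 (P7d), and the animals of all 3 were wild type (WT), received no treatment and were given as male. The labels number the hearts of a stage as biological replicates 1 to 3, and the p-values below measure the spread between these hearts. Expression was deposited as FPKM, which counts the fragments of a gene per kilobase of its transcript and per 1e6 fragments mapped. Levels can be compared between genes only as far as the length used for each gene fits its transcripts in the heart. Those lengths are not given in the sources used here, which limits the orders, shares and ratios of genes below. The spacing of the low values gave about 24.75 to 42.25 times 1e6 fragments per heart. At that depth the lowest member value, 2.51 FPKM of *Pdp2* in P1d replicate 3, stood for about 384 fragments, a counting error of about 5.10%.

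The tissue label was checked against marker genes. The 6 cardiomyocyte markers were *Myh6*, *Tnnt2*, *Tnni3*, *Actc1*, *Ryr2* and *Myl2*. They summed to 31327 ± 1239 FPKM in E18.5d, 36382 ± 2589 in P1d and 36928 ± 926 in P7d hearts (SD, n = 3). *Myl2* was the most abundant of them in the mean over the hearts. The markers did not change alike. *Myh6* had stage means of 3220, 6737 and 8318 FPKM, *Tnnt2* of 4431, 4775 and 3056, and *Actc1* of 7400, 6656 and 7323. From E18.5d to P7d, the limma test described below called a rise for 3 markers, a fall for 1 and no change for 2. The sex label did not hold for every heart. *Xist*, which is transcribed from the inactive X chromosome of female cells, was at 82.6 FPKM in E18.5d replicate 1, 97.0 in E18.5d replicate 3, 58.0 in P7d replicate 2 and 69.96 in P7d replicate 3. In these 4 hearts *Ddx3y*, *Eif2s3y*, *Kdm5d* and *Uty*, genes of the Y chromosome, were listed at 0. The other 5 hearts, with 1 from E18.5d, 3 from P1d and 1 from P7d, had at most 0.11 FPKM of *Xist* and expressed all 4 Y-linked genes. *Pdha1* and *Pdk3* lie on the X chromosome, so their results are given below also with a covariate for *Xist* above 1 FPKM and in the 5 hearts whose data fit the label. Since the hearts are bulk tissue, fewer cells of a type and less RNA per cell cannot be told apart.

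Averaged over the 9 hearts, all 10 genes reached the minimum of 1 FPKM and were tested with limma on log2(FPKM + 1), a scale that understates the change of low genes, together with all 13618 genes that passed this filter. The 3 comparisons share hearts, so their values are given side by side. A gene was called at an adjusted p below 0.05. Between P1d and E18.5d, 3 of the 10 were higher at P1d (*Pdk4*, *Pdk2* and *Pdp1*), against 18.4% of all genes tested, and 2 were lower (*Pdk1* and *Pdp2*), against 27.6%. Between P7d and P1d, 2 were higher at P7d (*Pdhx* and *Dlat*), against 15.5%, and 3 were lower (*Pdk3*, *Pdk1* and *Pdk2*), against 28.6%. Between P7d and E18.5d, 5 were higher at P7d (*Pdk4*, *Pdk2*, *Pdp1*, *Pdha1* and *Pdhx*), against 12.5%, and 4 were lower (*Pdk3*, *Pdk1*, *Pdp2* and *Pdhb*), against 36.9%. The hearts of the compared stages did not overlap in 7, 6 and 9 of the 10 genes in these comparisons, and in 54.4%, 53.6% and 62.5% of all genes tested. The median log2 change of the 10 genes was -0.09, -0.06 and 0.19 in the same order, and that of all genes tested was -0.06, -0.09 and -0.17.

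These counts depend on how the columns are scaled, and the median of all genes moves with the scale as well. Scaling by the median of ratios moved the all-gene median by 0.06 for P1d against E18.5d, by 0.09 for P7d against P1d and by 0.15 for P7d against E18.5d, and quantile normalization moved it by 0.07, 0.08 and 0.15. Rescaling the columns to an equal sum moved it by -0.15, 0.11 and -0.04. With median of ratios, 23.2% of all genes were higher and 22.9% lower at P1d than at E18.5d, 21.9% higher and 19.8% lower at P7d than at P1d, and 21.3% higher and 20.9% lower for P7d against E18.5d. Of the genes called, 40.0%, 35.1% and 25.3% were higher in the 3 comparisons on the deposited scale. These shares were 50.3%, 52.5% and 50.5% by median of ratios, 51.1%, 50.8% and 49.6% on the quantile scale, and 20.02%, 56.0% and 22.2% with an equal sum. Of the 10 members, 4 were higher and 2 lower at P1d than at E18.5d with median of ratios, 3 higher and 1 lower at P7d than at P1d, and 6 higher and 2 lower for P7d against E18.5d. Changes relative to the all-gene median of the deposited scale are given beside the log2 changes of some of the smaller effects.

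**Figure D1:**
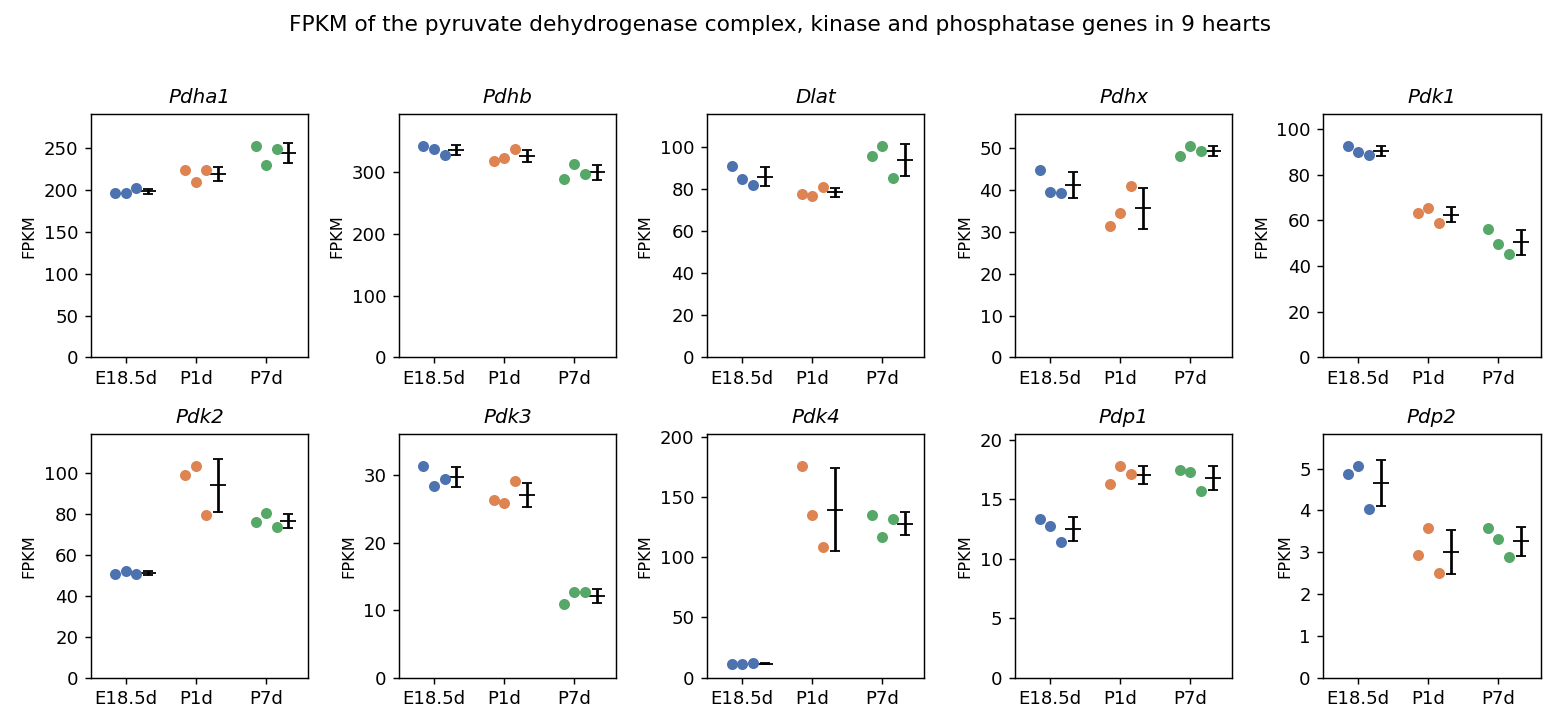
FPKM of the 10 genes (vertical axes, from 0, each gene on its own scale) in the 3 hearts of E18.5d, P1d and P7d (dots), with the mean and SD of each stage in black. *Pdk4* lies at 11.2 to 12.1 FPKM in the E18.5d hearts and at 108 FPKM or above in the others, while *Pdk3* falls between P1d and P7d.

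The E1 component is built from an alpha and a beta subunit. *Pdha1* encodes the alpha subunit, which carries the serines that the kinases phosphorylate, and lies at chrX:160122209-160138413 on the minus strand (GRCm38). It was at 197, 197 and 202 FPKM in the E18.5d hearts, 224, 209 and 224 FPKM at P1d, and 253, 230 and 248 FPKM at P7d. Each stage lay above the one before without overlap, in steps of similar size. Neither step passed the threshold alone, with a log2 change of 0.14 from E18.5d to P1d (limma, adjusted p = 0.0662) and 0.15 from P1d to P7d (adjusted p = 0.0504). Both together did, with 0.29 from E18.5d to P7d (standard error 0.06, adjusted p = 0.00217), or 0.47 relative to the all-gene median. Across the alternatives the adjusted p of the change from E18.5d to P7d ranged from 1.47e-04 with median of ratios to 0.187 in the 5 hearts without *Xist*, and with an equal sum it was 0.110. E18.5d and P7d each have 2 hearts with *Xist*, so the covariate cannot move the log2 change between them. With it, the step from E18.5d to P1d was 0.12 (adjusted p = 0.251) and that from P1d to P7d 0.17 (0.115), and in the 5 hearts without *Xist* these steps were 0.15 (0.398) and 0.21 (0.294). The step from E18.5d to P1d was called with median of ratios (0.21, adjusted p = 0.0119) and without P1d replicate 2 (0.17, 0.0356), and turned to -0.03 with an equal sum (0.841), the largest adjusted p among its alternatives. The step from P1d to P7d was called with median of ratios (0.26, adjusted p = 0.00447, the smallest among its alternatives, which reached 0.294), with quantile normalization, with the replicate number as a block (0.0461) and without P7d replicate 2 (0.19, 0.0335). The 3′ end of *Pdha1* overlaps *Map3k15* on the other strand, and whether fragments were counted by strand is not given in the sources used here. *Map3k15* was at 0.75 FPKM or less in every heart.

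*Pdhb*, on chr14:8165996-8173025 (minus strand), encodes the beta subunit and was the most abundant of the 10 genes in each heart. It was at 343, 338 and 328 FPKM at E18.5d, 318, 323 and 338 FPKM at P1d, and 290, 314 and 297 FPKM at P7d. The P7d hearts lay below all others, and the E18.5d and P1d hearts overlapped. Its log2 change was -0.16 from E18.5d to P7d (limma, adjusted p = 0.0292). Relative to the all-gene median this was 0.01, and its sign followed the scale, with 0.02 by median of ratios and 0.08 on the quantile scale. The call was lost without E18.5d replicate 1 (-0.15, adjusted p = 0.0888), E18.5d replicate 2 (-0.16, 0.0846), P7d replicate 1 (-0.14, 0.102) or P7d replicate 3 (-0.16, 0.0780). It was also lost with an equal sum (-0.21, adjusted p = 0.0974) and with the model run without the trend. The adjusted p of this change over all alternatives ran from 0.0261 to 0.833. The changes between neighbouring stages, -0.04 and -0.12, did not pass the threshold (adjusted p = 0.531 and 0.0958).

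The ratio of *Pdha1* to *Pdhb* FPKM within a heart does not change when its column is multiplied by a factor. It was 0.574, 0.583 and 0.615 at E18.5d, 0.703, 0.648 and 0.664 at P1d, and 0.872, 0.735 and 0.836 at P7d. The 3 stages did not overlap, and the mean rose from 0.591 ± 0.0216 through 0.672 ± 0.0284 to 0.814 ± 0.0712 (SD, n = 3, no test was run on the ratio). The paralog *Pdha2*, known from the testis, was listed at 0 in all 9 hearts.

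The E2 core of the complex transfers the acetyl group to coenzyme A, and the E3 binding protein holds the E3 component to that core. *Dlat* (chr9:50634633-50659780, minus strand) encodes E2 and was at 91.2, 85.0 and 82.1 FPKM at E18.5d, 77.9, 77.0 and 81.0 FPKM at P1d, and 95.9, 101 and 85.6 FPKM at P7d. The P1d hearts were the lowest and did not overlap with either other stage, while E18.5d and P7d overlapped. *Dlat* was higher at P7d than at P1d by 0.25 on the log2 scale (limma, adjusted p = 0.0166), or 0.35 relative to the all-gene median. This call was lost without P7d replicate 1 (0.24, adjusted p = 0.0534), without P7d replicate 2 (0.20, 0.0629) and with the *Xist* covariate (0.26, 0.0676), with a range of 0.00412 to 0.170 over the alternatives. The log2 change of -0.13 between P1d and E18.5d was not called (adjusted p = 0.163) but was with an equal sum (-0.30, 0.0299, range 0.0299 to 0.550). The change of 0.12 between P7d and E18.5d (adjusted p = 0.168) was called with median of ratios (0.30, 0.00948), with quantile normalization and without P7d replicate 3 (0.19, 0.0479, range 0.00948 to 0.532).

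*Pdhx* (chr2:103021075-103073513, minus strand) encodes the E3 binding protein and followed the course of *Dlat* with a larger postnatal step. It was at 44.7, 39.4 and 39.3 FPKM at E18.5d, 31.2, 34.5 and 40.9 FPKM at P1d, and 48.0, 50.5 and 49.3 FPKM at P7d. The P7d hearts lay above all others, and P1d replicate 3 lay within the range of the E18.5d hearts. *Pdhx* was higher at P7d than at P1d by 0.47 (limma, adjusted p = 0.00341), or 0.56 relative to the all-gene median, and among the alternatives this call was lost only in the 5 hearts without *Xist* (0.43, 0.201). The difference between P7d and E18.5d was 0.26 (adjusted p = 0.0459), close to the threshold. It was lost under 12 of 20 alternatives (adjusted p from 0.00602 to 0.460), among them the leaving out of E18.5d replicate 2 (0.23, adjusted p = 0.130), E18.5d replicate 3 (0.23, 0.126), P1d replicate 2 (0.26, 0.0525), P7d replicate 1 (0.27, 0.0766), P7d replicate 2 (0.24, 0.119) or P7d replicate 3 (0.26, 0.0968). From E18.5d to P1d the log2 change was -0.21 (adjusted p = 0.0923), called with an equal sum (-0.38, 0.0232) and without P1d replicate 3 (-0.32, 0.00935, range 0.00935 to 0.587).

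The 4 kinases phosphorylate E1 alpha and so inactivate the complex. *Pdk4*, the kinase gene known for its induction by fasting and fatty acids, lies at chr6:5483351-5496309 on the minus strand. It was at 11.2, 11.2 and 12.1 FPKM in the E18.5d hearts, 176, 135 and 108 FPKM at P1d, and 135, 117 and 132 FPKM at P7d. The E18.5d hearts were low and close together, the P1d hearts were all high with P1d replicate 1 above the rest, and the P7d hearts lay within the range of P1d. The mean at P1d was 12.2 times that at E18.5d, a log2 change of 3.47 (standard error 0.15, 95% confidence interval 3.14 to 3.79, limma, adjusted p = 9.02e-07). This was rank 6 from the highest among the 13618 genes. The mean at P7d was 11.1 times that at E18.5d, a log2 change of 3.37 (95% confidence interval 3.04 to 3.69, adjusted p = 3.94e-07) and rank 10. Both changes passed the threshold under all 20 alternatives, with log2 changes of 3.29 to 3.64 at P1d and 3.33 to 3.54 at P7d. Between P7d and P1d the change was -0.10 (95% confidence interval -0.43 to 0.23, adjusted p = 0.603), with 0.03 on the equal-sum scale and 0.01 by median of ratios.

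*Pdk2* (chr11:95026258-95041354, minus strand), a kinase gene expressed in many tissues, was also higher after birth. It was at 50.5, 52.4 and 51.0 FPKM at E18.5d, 99.1, 104 and 79.6 FPKM at P1d, and 76.2, 80.5 and 73.8 FPKM at P7d. Every postnatal heart lay above every E18.5d heart, and P1d replicate 3 fell among the P7d hearts. *Pdk2* was higher at P1d than at E18.5d by 0.85 on the log2 scale (1.83-fold in the means, limma, adjusted p = 9.00e-05), and at P7d by 0.57 (1.497-fold, adjusted p = 7.83e-04). The fall from P1d to P7d was small (-0.28, adjusted p = 0.0313). Its call was lost without P1d replicate 1 (-0.24, adjusted p = 0.0968), P1d replicate 2 (-0.21, 0.0929), P7d replicate 1 (-0.28, 0.0762) or P7d replicate 3 (-0.25, 0.0954), with the *Xist* covariate (-0.27, 0.120) and with all 3 other scalings (-0.17 and 0.156 with median of ratios), over a range of 0.00101 to 0.351. In total the call of this fall was lost under 11 of 20 alternatives, also without a filter and on the compared stages alone. The antisense gene *Gm11513* overlaps *Pdk2* and was at 0.34 FPKM or less in every heart.

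*Pdk1* (chr2:71873224-71903858, plus strand), known as a target of the hypoxia-inducible factor, went the other way. It was at 92.7, 89.9 and 88.6 FPKM at E18.5d, 63.3, 65.3 and 59.0 FPKM at P1d, and 56.0, 49.7 and 45.4 FPKM at P7d. The 3 stages did not overlap and each was lower than the one before. The log2 change was -0.53 from E18.5d to P1d (limma, adjusted p = 5.52e-04) and -0.84 from E18.5d to P7d (adjusted p = 3.51e-05). From P1d to P7d it was -0.31 (adjusted p = 0.0102), or -0.22 relative to the all-gene median. That last call was lost with median of ratios (-0.20, adjusted p = 0.0576), with quantile normalization, with an equal sum (-0.18, 0.193) and with the *Xist* covariate (-0.24, 0.0879), over a range of 0.00372 to 0.426.

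*Pdk3* lies on the X chromosome, at chrX:93764607-93832201 on the minus strand, and is the lower expressed kinase gene of the postnatal heart. It was at 31.4, 28.4 and 29.5 FPKM at E18.5d, 26.3, 25.9 and 29.1 FPKM at P1d, and 10.99, 12.7 and 12.7 FPKM at P7d. The E18.5d and P1d hearts overlapped, and all P7d hearts were far below them. The log2 change was -0.13 from E18.5d to P1d (limma, adjusted p = 0.185, not called under any of the 20 alternatives). It was -1.10 from P1d to P7d (95% confidence interval -1.27 to -0.93, adjusted p = 1.54e-05) and -1.23 from E18.5d to P7d (adjusted p = 3.32e-06). In the ranking of all genes from the lowest change, *Pdk3* was 262 from P1d to P7d and 207 from E18.5d to P7d. With the *Xist* covariate the change from E18.5d to P1d was -0.04 (adjusted p = 0.773), and in the 5 hearts without *Xist* it was -0.07 (0.743). With the covariate the change from P1d to P7d was -1.19 (adjusted p = 1.35e-04), and in the 5 hearts without *Xist* it was -1.23 (adjusted p = 0.0351, range over the alternatives 7.91e-06 to 0.0351). Within P7d the heart without *Xist*, replicate 1, had the lowest value.

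**Figure D2:**
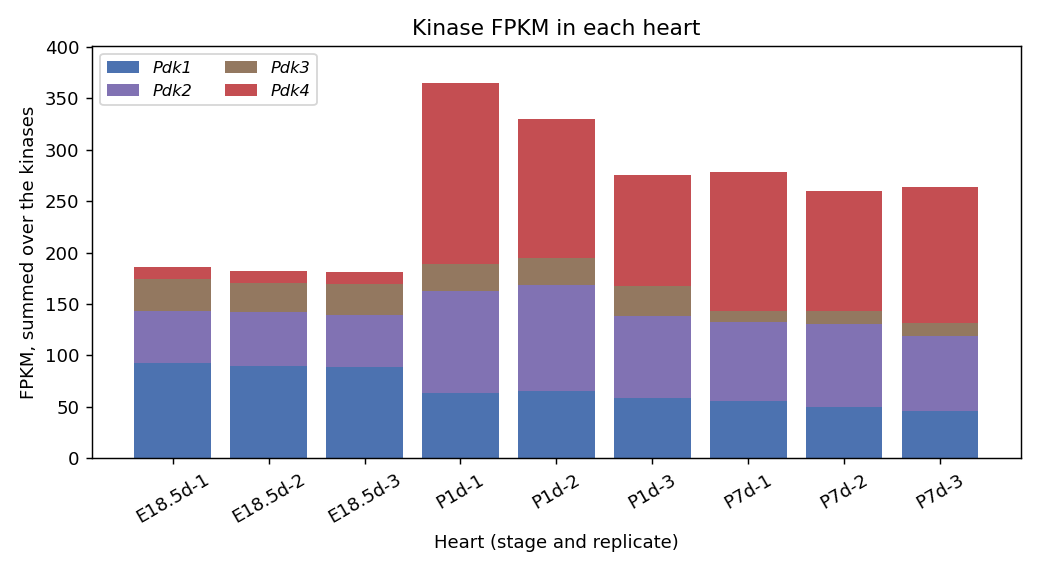
FPKM of the 4 kinase genes (vertical axis, stacked from 0) in each of the 9 hearts. *Pdk1* takes 48.9% to 49.9% of the sum in the E18.5d hearts and *Pdk4* takes 39.2% to 49.95% in the postnatal hearts.

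The order of the 4 kinase genes was the same in the hearts of a stage and changed around birth. From high to low it was *Pdk1*, *Pdk2*, *Pdk3* and *Pdk4* in all 3 E18.5d hearts, and *Pdk4*, *Pdk2*, *Pdk1* and *Pdk3* in all 6 postnatal hearts. The summed kinase level was 183 ± 2.46 FPKM in E18.5d, 323 ± 44.7 in P1d and 267 ± 9.58 in P7d hearts (SD, n = 3). P1d replicate 3, at 276 FPKM, lay between the P7d hearts at 260 and 278 FPKM, so the postnatal stages overlapped. *Pdk4* made up 6.01%, 6.16% and 6.67% of this sum in the E18.5d hearts, 48.2%, 40.9% and 39.2% at P1d, and 48.5%, 45.1% and 49.95% at P7d. *Pdk1* made up 49.4% ± 0.4997 in E18.5d, 19.5% ± 2.02 in P1d and 18.8% ± 1.48 in P7d hearts. *Pdk3* made up 16.3% ± 0.641, 8.54% ± 1.78 and 4.56% ± 0.524 in the same order. The share of *Pdk2* moved little, at 28.1% ± 0.813, 29.2% ± 2.13 and 28.8% ± 1.89. The place that *Pdk1* held before birth was thus held by *Pdk4* after it, by share of the summed kinase FPKM. Set against their substrate, the summed kinases were 0.922 ± 0.0231 of the *Pdha1* level in E18.5d, 1.48 ± 0.218 in P1d and 1.097 ± 0.0344 in P7d hearts, and the hearts of the 3 stages did not overlap.

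The phosphatases remove the phosphate from E1 alpha. *Pdp1* (chr4:11958184-11966452, minus strand) encodes the catalytic subunit that is stimulated by calcium. It was at 13.4, 12.8 and 11.4 FPKM at E18.5d, 16.3, 17.8 and 17.1 FPKM at P1d, and 17.5, 17.3 and 15.6 FPKM at P7d. All postnatal hearts lay above the E18.5d hearts, and the postnatal stages overlapped. *Pdp1* was higher at P1d than at E18.5d by 0.42 (limma, adjusted p = 0.00168) and at P7d by 0.40 (adjusted p = 0.00203). Between P7d and P1d its change was -0.02 (95% confidence interval -0.19 to 0.15, adjusted p = 0.841).

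*Pdp2* (chr8:104591451-104599026, plus strand), the phosphatase gene known to respond to insulin, was the lowest of the 10 genes in every heart. It was at 4.87, 5.06 and 4.04 FPKM at E18.5d, 2.93, 3.57 and 2.51 FPKM at P1d, and 3.58, 3.31 and 2.88 FPKM at P7d. The E18.5d hearts lay above all postnatal hearts, by a gap smaller than the range within each stage. *Pdp2* was lower at P1d than at E18.5d by a log2 change of -0.50 (limma, adjusted p = 0.00806) and at P7d by -0.41 (adjusted p = 0.0196). The second call was lost with median of ratios (-0.26, adjusted p = 0.0973) and on the quantile scale, and without E18.5d replicate 1 (-0.38, 0.0605), E18.5d replicate 2 (-0.36, 0.0715) or P7d replicate 3 (-0.34, 0.0713), over a range of 0.00786 to 0.367. *Pdp1* made up 72.9% ± 1.14 of the summed phosphatase FPKM in E18.5d, 85.1% ± 1.97 in P1d and 83.8% ± 0.732 in P7d hearts.

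The 2 phosphatase genes together stood at 17.2 ± 1.52 FPKM in E18.5d, 20.1 ± 1.14 in P1d and 20.1 ± 1.35 in P7d hearts. The ratio of summed kinase to summed phosphatase FPKM was 10.2, 10.2 and 11.8 in the E18.5d hearts, 19.0, 15.4 and 14.1 at P1d, and 13.2, 12.6 and 14.2 at P7d. Every postnatal heart was above every E18.5d heart, and P1d replicate 3 lay within the range of P7d. These are ratios of RNA levels, and the activity of the enzymes was not measured in these data. *Pdpr*, which encodes the regulatory subunit of the phosphatase, was at 18.6, 17.9 and 16.2 FPKM at E18.5d, 31.3, 32.3 and 31.0 FPKM at P1d, and 27.4, 26.4 and 25.1 FPKM at P7d. It was higher at P1d than at E18.5d by 0.81 (limma, adjusted p = 1.88e-05) and at P7d by 0.56 (adjusted p = 1.41e-04). The call of its fall from P1d to P7d (-0.25, adjusted p = 0.0120) was lost with all 3 other scalings. The fall was -0.15 with median of ratios (limma, adjusted p = 0.0872), -0.14 on the quantile scale (0.0903) and -0.13 with an equal sum (0.343). The ratio of *Pdpr* to *Pdp1* was 1.41 ± 0.0135 in E18.5d, 1.85 ± 0.0600 in P1d and 1.57 ± 0.0391 in P7d hearts, without overlap of the stages.

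**Figure D3:**
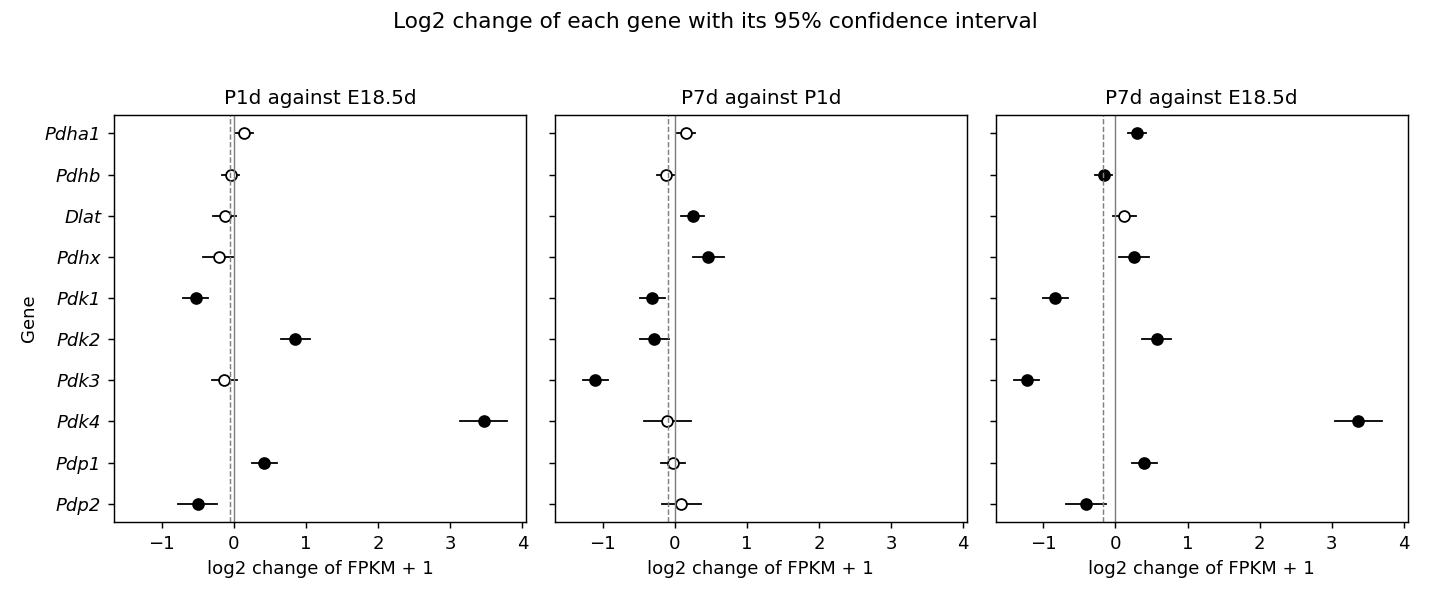
Log2 change of FPKM + 1 of each gene (horizontal axis) in the 3 comparisons, with 95% confidence intervals from limma. Filled dots passed an adjusted p of 0.05 and open dots did not, the solid line marks 0 and the dashed line marks the median of all genes tested (-0.06, -0.09 and -0.17).

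In the 5 hearts whose sex genes fit the label, a choice made after the data were seen, E18.5d and P7d have 1 heart each, which is assumed to vary like the P1d hearts. There, 239 of all genes were called higher and 584 lower at P1d than at E18.5d. *Pdk4* was still called at P1d (3.50, limma, adjusted p = 0.0186) and at P7d (3.48, 0.0254) against E18.5d, and *Pdk3* at P7d against P1d and against E18.5d (-1.30, adjusted p = 0.0391). The other 8 genes were not called there. Few of the 13618 genes were called in the comparisons with P7d, with 75 higher and 104 lower against P1d, and 93 higher and 101 lower against E18.5d, so a lost call says little about a single gene. *Pdk1* had -0.52 (adjusted p = 0.0604) and *Pdk2* 0.82 (0.0604) at P1d against E18.5d, close to their values in all hearts.

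Other genes of the complex, of its cofactors and of pyruvate entry into mitochondria were described from a list. *Dld*, which encodes the E3 component shared with related complexes, was at 123 ± 3.82 FPKM in E18.5d, 108 ± 15.2 in P1d and 126 ± 2.10 in P7d hearts, and was called in none of the comparisons on the deposited scale (adjusted p = 0.0981, 0.0632 and 0.792 for P1d against E18.5d, P7d against P1d and P7d against E18.5d). The second of these was called with median of ratios (0.34, adjusted p = 0.0173) and on the quantile scale (0.32, 0.0398). Of the subunit genes of the mitochondrial pyruvate carrier, *Mpc1* was at 129, 118 and 123 FPKM and *Mpc2* at 63.3, 51.2 and 62.6 FPKM in the means of the 3 stages. *Mpc2* was lower at P1d than at E18.5d (-0.31, limma, adjusted p = 0.0413), a call lost with median of ratios (0.0955). Its change of 0.299 from P1d to P7d (adjusted p = 0.0514) was called with all 3 other scalings. Of 10 tested genes among 12 for the core, its lipoate and thiamine cofactors and the carrier, 2 were higher and 2 lower at P1d than at E18.5d, 0 higher and 2 lower at P7d than at P1d, and 1 higher and 1 lower for P7d against E18.5d. Of all genes tested, 18.4% were higher and 27.6% lower in the first comparison, 15.5% and 28.6% in the second, and 12.5% and 36.9% in the third. The same shares stand beside the lists below. The counts of the core list turned with the scale. At P7d against P1d 3 were higher and 1 lower with median of ratios, 2 and 1 on the quantile scale, and 1 and 1 with an equal sum. At P1d against E18.5d 2 and 1 were called with median of ratios and 1 and 3 with an equal sum, and at P7d against E18.5d 2 and 1 with median of ratios. The median changes of the list were -0.13, 0.08 and -0.05, and the last turned to 0.11 with median of ratios. Among the called genes was *Lias*, for lipoate synthesis, at 22.0, 30.3 and 20.2 FPKM in the 3 stages.

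Genes for other fates of pyruvate and acetyl-CoA (12 of 12 tested) were called in both directions. At P1d against E18.5d 4 were higher and 4 lower, at P7d against P1d 9 and 3, and at P7d against E18.5d 6 and 5. The lower genes of the last were 2 with median of ratios and 3 on the quantile scale, and those of P7d against P1d were 1 with an equal sum. *Ldha*, the lactate dehydrogenase gene of glycolytic tissue, had a mean of 961 FPKM in E18.5d, 408 in P1d and 500 in P7d hearts. It was lower at P1d than at E18.5d by a log2 change of -1.23 (limma, adjusted p = 3.78e-06). Of the related 2-oxoacid dehydrogenase complexes (9 of 9 tested), 2 genes were higher and 2 lower in each of the steps, and 4 higher and 2 lower for P7d against E18.5d. With an equal sum 1 was higher at P1d and 2 at P7d against E18.5d. *Ogdh*, for E1 of the 2-oxoglutarate dehydrogenase complex, stood at 265, 277 and 511 FPKM and was higher at P7d than at P1d by 0.88 (adjusted p = 1.44e-05).

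Of 15 regulators known to act on kinase genes, 14 were tested. At P1d against E18.5d 6 were higher and 2 lower, with a median of 0.12 that turned to -0.05 with an equal sum, where 4 were higher and 3 lower (6 and 1 by median of ratios). *Ppargc1a*, for a coactivator of nuclear receptors, was at 29.99 FPKM in E18.5d, 49.1 in P1d and 30.02 in P7d hearts in the mean, and *Foxo3*, for a forkhead factor, at 17.5, 31.9 and 17.1 FPKM. Both were higher at P1d than at E18.5d and lower at P7d than at P1d, and neither was called between P7d and E18.5d (adjusted p = 0.987 and 0.891). *Ppara*, for a receptor activated by fatty acids, was at 11.6, 7.98 and 11.4 FPKM, lower at P1d by a log2 change of -0.49 (limma, adjusted p = 0.0154). *Nr3c1*, for the glucocorticoid receptor, was at 26.7, 29.5 and 39.5 FPKM, and *Hif1a* at 58.5, 47.4 and 52.6 FPKM. At P7d against P1d 4 of the regulators were higher and 5 lower (median 0.10), and at P7d against E18.5d 4 were higher and 0 lower (median 0.11, with 10 genes not called). With median of ratios these counts were 6 and 3, then 6 and 0, and with an equal sum 4 and 3, then 2 and 0.

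Companion genes known to respond to the same signals were counted beside the kinases. Of 12 genes known to respond to PPAR receptors, 11 were higher and 0 lower at P1d than at E18.5d (median 1.72), 4 higher and 4 lower at P7d than at P1d (median 0.03), and 12 higher and 0 lower for P7d against E18.5d (median 1.48). The rise by P1d was shared with *Pdk4*, while from P1d to P7d the list went both ways. *Angptl4*, like *Pdk4*, was not called in that step (adjusted p = 0.793), with means of 2.00, 26.1 and 26.8 FPKM, whereas *Ucp3* rose from 7.24 to 22.8 FPKM and *Acot1* fell from 73.9 to 37.8 FPKM. Of 9 tested genes among 10 known to respond to hypoxia, 0 were higher and 7 lower at P1d than at E18.5d (median -0.85), 4 higher and 4 lower at P7d than at P1d (median 0.30), and 0 higher and 7 lower for P7d against E18.5d (median -1.09). Scaled by median of ratios, the last 2 counts were 5 and 2, then 2 and 7. *Slc2a1*, for a glucose transporter, went down in each step like *Pdk1*, with means of 25.7, 5.83 and 3.54 FPKM. Of 8 genes known to respond to glucocorticoids, 7 were higher and 0 lower at P1d than at E18.5d (median 1.16), 0 higher and 8 lower at P7d than at P1d (median -1.55), and 2 higher and 6 lower for P7d against E18.5d (median -0.85). With an equal sum 1 of these genes was higher and 6 lower for P7d against E18.5d. *Per1*, for a clock protein, had means of 17.4, 87.6 and 8.05 FPKM. The part of these signals in the levels of the kinase genes was not tested.

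The genes whose log2(FPKM + 1) was most like that of *Pdk2*, *Pdk3*, *Pdk4*, *Pdp1* or *Pdp2* were taken by Pearson's r over the 9 hearts. The hearts fall into 3 stages, so a high r mostly says that the stage means are ordered alike, and r is given as a description. For *Pdk4* they were *Acacb* (r = 0.998), *Mlycd* (0.996) and *Cat* (0.994), and for *Pdk2* *Tom1* (0.994), *Pnpla2* (0.993) and *Slc41a3* (0.988). *Acacb* encodes the acetyl-CoA carboxylase at mitochondria and *Mlycd* the malonyl-CoA decarboxylase, which make and remove malonyl-CoA, and *Pnpla2* encodes a triglyceride lipase. *Acacb* was at 21.8, 50.3 and 50.7 FPKM in the stage means and *Mlycd* at 10.5, 46.6 and 40.5 FPKM. For *Pdk3* they were *Ankrd63* (0.995), *Ror2* (0.994) and *Rbm18* (0.992). For *Pdp1* they were *Eci1* (0.986), *Ndufv1* (0.982) and *Kcnh2* (0.979), and for *Pdp2* *Slc1a4* (0.982), *Grhpr* (0.973) and *Fads2* (0.963).

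Promoter sequences of RefSeq (GRCm38.p6, 250 bases before to 50 after the start) were found for 9 of the 10 genes, in 11 windows, but not for *Pdp1*. Each was searched on both strands for AGGTCA (a site of nuclear receptors), TCAAGGTCA (the site of estrogen-related receptors, which contains the first), ACGTG (a form of the core bound by hypoxia-inducible factors), TGTTCT (a site of the glucocorticoid receptor) and GTAAACA (a forkhead site). Of all 32851 promoters, 16.3%, 0.423%, 19.6%, 19.0% and 3.65% held them, in this order. ACGTG was found at *Pdk2*, *Pdk3*, *Pdp2* and *Pdhb*, TGTTCT at 2 places in the second window of *Pdk1*, and the other 3 motifs in none of the 11 windows. *Pdk4* and the first window of *Pdk1* held no match, which says only that these letters are not in these windows. In *Pdk2* and *Pdp2*, which changed in opposite directions at birth, ACGTG was found on both strands at 1 place, as CACGTG. That stretch reads the same on both strands, so a match on one brings a match on the other. Which factors bind there was not tested. The stretches before the annotated starts are shown for these genes and for *Pdk4*, 5′ to 3′ on the strand of the gene, with matches in capitals, at chr6:5496310-5496528 (minus strand) for *Pdk4*, chr11:95041372-95041621 (minus strand) for *Pdk2* and chr8:104591222-104591450 (plus strand) for *Pdp2*.
Pdk4: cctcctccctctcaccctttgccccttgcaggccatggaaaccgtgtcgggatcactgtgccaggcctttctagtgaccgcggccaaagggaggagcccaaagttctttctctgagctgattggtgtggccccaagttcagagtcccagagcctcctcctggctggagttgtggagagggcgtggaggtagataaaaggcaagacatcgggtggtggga
Pdk2: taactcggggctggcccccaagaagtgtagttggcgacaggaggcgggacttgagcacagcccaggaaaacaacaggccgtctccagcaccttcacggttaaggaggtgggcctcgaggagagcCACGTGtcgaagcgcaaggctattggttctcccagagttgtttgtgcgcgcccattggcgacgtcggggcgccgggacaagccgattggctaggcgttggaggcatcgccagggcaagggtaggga
Pdp2: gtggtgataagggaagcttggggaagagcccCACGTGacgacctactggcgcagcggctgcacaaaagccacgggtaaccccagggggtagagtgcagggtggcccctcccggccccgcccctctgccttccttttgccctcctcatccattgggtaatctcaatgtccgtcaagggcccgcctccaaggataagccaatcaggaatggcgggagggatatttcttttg

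Markers of other cells and tissues were summed in each heart. The 4 brown fat markers (*Ucp1*, *Cidea*, *Adipoq* and *Plin1*) summed to 7.77, 6.13 and 7.27 FPKM at E18.5d, 25.9, 26.3 and 25.99 FPKM at P1d, and 33.6, 38.9 and 34.2 FPKM at P7d. Most of this was *Cidea*, the most abundant of the 4, while *Ucp1* was listed at 0 in the 3 E18.5d hearts and in P1d replicate 2 and reached 7.26 FPKM at P7d. *Adipoq* was at 3.09 FPKM or less and *Plin1* at 1.42 FPKM or less. Of the 3 tested, 2 were higher at P1d and 3 at P7d than at E18.5d. *Cidea* rose at P1d (1.61, limma, adjusted p = 5.92e-06) and was not called from P1d to P7d on the deposited scale (0.24, 0.0879, but called with all 3 other scalings). In that step *Ucp1* rose (2.499, 1.47e-04) and *Adipoq* fell (-0.78, 0.00628). The part of such tissue in the levels of *Pdk4* was not tested. Endothelial markers (4 of 4 tested, *Pecam1* most abundant, none at 0 throughout) summed to 278 ± 17.2, 324 ± 16.7 and 383 ± 7.37 FPKM in the 3 stages. Of these, *Pecam1* and *Tie1* were higher and *Kdr* lower at P1d than at E18.5d. From P1d to P7d *Kdr* (0.79, limma, adjusted p = 1.42e-05) and *Cdh5* (0.47, 2.34e-04) rose, and all 4 were higher at P7d than at E18.5d. Smooth muscle markers (3 of 3, *Acta2* most abundant) summed to 748 ± 75.5, 684 ± 71.0 and 571 ± 57.5 FPKM, and of the 3 only *Cnn1* was called lower in each step. Fibroblast markers (4 of 4, *Col1a1* most abundant) summed to 493 ± 4.80, 439 ± 85.2 and 649 ± 6.52 FPKM, with P1d replicate 2 above the E18.5d hearts at 538 FPKM. Of these, 0 were higher and 2 lower at P1d than at E18.5d, and 2 higher and 0 lower at P7d than at P1d. The lower genes at P1d were 1 with median of ratios and on the quantile scale, and 3 with an equal sum. With each of these scalings 3 were higher at P7d than at P1d. Macrophage markers (4 of 4, *C1qa* most abundant) summed to 33.4 ± 4.605, 49.2 ± 9.47 and 42.7 ± 2.48 FPKM, with P1d replicate 3 below the P7d hearts at 39.3 FPKM. Of these, 3 were higher and 0 lower at P1d than at E18.5d, and 1 higher and 0 lower at P7d than at P1d. The part of these cell types in the changes of the 10 genes was not tested. Erythroid genes summed to 9608 ± 5146, 12321 ± 4271 and 6585 ± 845 FPKM, and within E18.5d they ranged from 5806 to 15463 FPKM. Of the lung list, *Scgb3a1* was at 270 FPKM in P1d replicate 1 and at 115 FPKM in E18.5d replicate 2. Liver markers were highest in P1d replicate 2, with a sum of 27.6 FPKM, and at 7.44 FPKM or less in the other hearts. Of the skeletal muscle list 4 of 5 genes were under 1 FPKM in every heart, and the fifth, *Ckm*, is also expressed by the heart.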

How the data were processed

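The deposited table gives FPKM, computed by the authors and rounded to 2 decimals, with 1 column for each of the 9 hearts, and every column was used. The submitters' processing notes name STAR and the genome build GRCm38 (mm10), while the counting tool, its strand setting and the annotation are not given in the sources used here. Positions come from the GENCODE M21 annotation of GRCm38, in which the identifiers of 8 of the 10 genes have the same version. Depth was estimated from low FPKM values, of which 82.0% to 88.8% came within 0.1 of a whole number of fragments.

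Genes averaging 1 FPKM or more were fitted on log2(FPKM + 1) by limma 3.58.1 under R 4.3.3 (functions lmFit, contrasts.fit and eBayes, the latter with trend), the 9 hearts in 1 fit without covariates, with Benjamini-Hochberg adjustment over all genes tested and a threshold of 0.05. The fit was tested on simulated data in which few genes changed and all columns had the same scale. That test cannot decide between the scalings. Other values were computed in Python 3.11.15 with numpy 2.4.6 and pandas 2.3.3, and figures were drawn with matplotlib 3.10.9. Alternatives changed the pseudocount (to 0.1), the filter (none, or an average of 5 FPKM), the scale (median of ratios, an equal sum or quantile normalization) and the model, which was run without the trend, on the compared stages alone, with the replicate number as a block, with a covariate for *Xist* above 1 FPKM and without each heart in turn. The fit of the 5 hearts with *Xist* up to 1 FPKM was added after seeing the data. The members and lists were chosen with earlier results of these data known. From each pathway, regulator or companion list the genes named were among the 3 largest changes per direction and comparison that were called without overlap of the hearts. *Dld*, *Pdpr*, the pyruvate carrier genes and the regulators could be named whatever their change, the single marker genes were chosen after their values were seen, and the likeness was ranked among the genes tested. The genes most like *Pdk1* and 1 called gene of the list on the core and cofactors, which the counts of that list include, are not reported here.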

Additional observations from a re-analysis of the deposited data

How the results depend on the processing

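Each of the 30 results (10 genes in 3 comparisons) was computed under up to 20 alternatives, 597 values in all, since *Pdp2* has no value with a mean of at least 5 FPKM. Of these, 513 had the direction and side of the threshold of the reported value, 55 lost the call, 12 gained it and 17 changed sign, all 17 with an adjusted p of 0.258 or more. The changes of *Pdk4* against E18.5d and those of *Pdk3* at P7d kept their call in all 20.

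Of the counts of called genes, these moved by over 1.5 times. With a mean of at least 5 FPKM, 1 gene was lower at P1d than at E18.5d, because *Pdp2* was not tested. With an equal sum 4 were lower in that comparison, 1 was lower at P7d than at P1d and 3 were higher at P7d than at E18.5d. With median of ratios, and likewise on the quantile scale, 1 was lower at P7d than at P1d and 2 at P7d than at E18.5d. With the *Xist* covariate 1 was higher and 1 lower at P7d than at P1d. The calls among all 13618 genes moved too, there to 1467 higher and 2438 lower from 2112 and 3901. With the same covariate they moved to 1607 and 2893 at P1d against E18.5d, from 2505 and 3755. With an equal sum they moved to 1175 and 4694 from 2505 and 3755 at P1d against E18.5d. On that scale they were 2200 and 1729 at P7d against P1d, and 1267 and 4443, from 1706 and 5025, at P7d against E18.5d. In the 5 hearts with *Xist* up to 1 FPKM, 1 was higher and 0 lower at P1d than at E18.5d, 0 and 1 at P7d than at P1d, and 1 and 1 at P7d than at E18.5d. That fit has fewer samples. Leaving out 1 heart gave 1 to 2 genes higher at P7d than at P1d (1 without P7d replicate 1) and 2 to 4 lower at P7d than at E18.5d (2 without E18.5d replicate 1, E18.5d replicate 2 or P7d replicate 3). The calls among all genes fell as well. Without P7d replicate 1, 1738 were higher at P7d than at P1d, from 2112. Lower at P7d than at E18.5d, from 5025, were 4353 without E18.5d replicate 1, 4058 without E18.5d replicate 2 and 4354 without P7d replicate 3. Beyond what is said here of filter and samples, the cause was not tested.

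The signs that changed, in log2, were those of *Pdha1* at P1d against E18.5d with an equal sum (-0.033), and of *Pdhb* at P1d against E18.5d (0.027 with median of ratios, 0.030 on the quantile scale), at P7d against P1d (0.0099 with an equal sum, 0.049 on the quantile scale) and at P7d against E18.5d (0.017 with median of ratios, 0.079 on the quantile scale). At P7d against P1d, *Pdk4* had 0.029 with an equal sum, 0.0097 with median of ratios and -0.27 to 0.078 with 1 heart left out. There *Pdp1* had 0.10 with an equal sum, 0.084 with median of ratios, 0.085 on the quantile scale, 0.022 with the *Xist* covariate, 0.035 in the 5 hearts and -0.052 to 0.026 with 1 heart left out.

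Replicate numbers did not pair the hearts, as the deviations of hearts with the same number correlated at -0.055 to 0.112. With the number as a block, 3 genes were higher and 2 lower at P1d than at E18.5d, 3 and 3 at P7d than at P1d, and 4 and 4 at P7d than at E18.5d, and of all genes 2487 and 3686, 2040 and 3817, and 1706 and 4961.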
